A study of Caenorhabditis elegans with 2 samples.

Results

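The regions described here are the starts of operon-like downstream genes, meaning protein-coding genes whose annotated start follows a protein-coding neighbour on the same strand so closely that 500 bp or less separate the start from the neighbour's end. Applied to 19973 protein-coding genes of the Caenorhabditis elegans genome (WBcel235, the same assembly as ce11), this rule gave 3615 downstream genes. The distance between the end of the upstream gene and the downstream start is called the gap, and its quartiles were 103, 186 and 337 bp. Around each start a window from 500 bp upstream to 100 bp downstream was examined, and a gene was called bound when the summit of a deposited peak fell in that window. Downstream genes follow each other in runs, and each run begins with a gene that is not itself a downstream gene, here called the first gene. There were 2651 such runs, of which 1992 had 2 genes, 461 had 3 and 198 had 4 or more, the longest having 9. The gap was spanned or partly covered by another coding gene at 79 of the downstream genes.

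The binding data come from chromatin immunoprecipitation and sequencing of TLF-1, the worm's TBP-like factor, in 2 biological replicates of 1 group. The animals were whole young adults of 65.5 hours, both sexes pooled, grown from L1 larvae that had been starved after bleaching. They belonged to strain OP749, in which the integrated transgene wgIs749 supplies both tlf-1::TY1::EGFP::3xFLAG and the rescue marker unc-119(+) to unc-119(tm4063) animals, and the fusion was pulled down with an antibody against GFP. The sources used here do not name its promoter or copy number. There was no other group, neither an untagged strain nor a mutant, so every comparison below is between classes of genes inside the same libraries, and signal from a whole animal does not say which cells it came from. Deposited were a set of 1880 peaks kept by the authors for reproducibility between the replicates (IDR, for irreproducible discovery rate), a pooled list of 28153 peaks, and 24495 and 23453 peaks for replicates 1 and 2. Beside the IDR set, the 1880 strongest peaks of each replicate by the authors' signal value were used as a set of the same size from 1 replicate alone, and a rank always counts from the strongest peak of its list. Read depth is not given in the sources used here.

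In an operon of C. elegans, several genes are transcribed from a single promoter in front of the first gene into a polycistronic precursor. The precursor is cut into separate messages by 3' end formation at each upstream gene and by trans-splicing of a spliced leader, usually SL2, onto each downstream gene, and the genes of such an operon typically stand close together. Some operons are known as hybrids, in which a downstream gene also has a promoter of its own between the genes. TBP binds the TATA box and nucleates the preinitiation complex, and TBP-like factors (TRF2 or TLF in other animals) act at sets of promoters without a TATA box. In C. elegans, TLF-1 is required for zygotic transcription in the embryo. The annotated start of a trans-spliced gene is usually its trans-splice site or a nearby base rather than the point where RNA polymerase began, so a summit in front of it lies at an unknown distance from the point of initiation.

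The sequences between the genes differ among bound downstream genes, and 6 of them are printed to show the range. For comparison, gaps of 2 classical operons follow, that of rps-16, which was also bound, and that of gpd-3, which had no IDR summit. The first 3 hold some of the strongest IDR summits of the class, while rpi-2, F42A6.6 and lin-52 show bound genes with short gaps and were picked after their values had been seen. Each line is the whole gap, read 5' to 3' on the strand of the genes from the base after the upstream gene's end to the base before the downstream start, in the RefSeq copy of WBcel235, with no annotated UTR in it. Capitals mark the trans-splice acceptor letters TTTCAG and every GCGC.
Y39B6A.43: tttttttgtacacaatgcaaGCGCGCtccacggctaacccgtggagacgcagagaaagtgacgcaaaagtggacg
his-37: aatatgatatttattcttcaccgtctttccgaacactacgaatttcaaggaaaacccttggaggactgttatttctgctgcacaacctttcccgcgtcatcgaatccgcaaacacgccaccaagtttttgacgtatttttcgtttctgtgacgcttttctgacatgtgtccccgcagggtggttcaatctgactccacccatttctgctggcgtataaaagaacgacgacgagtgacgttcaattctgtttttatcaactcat
fbxl-2: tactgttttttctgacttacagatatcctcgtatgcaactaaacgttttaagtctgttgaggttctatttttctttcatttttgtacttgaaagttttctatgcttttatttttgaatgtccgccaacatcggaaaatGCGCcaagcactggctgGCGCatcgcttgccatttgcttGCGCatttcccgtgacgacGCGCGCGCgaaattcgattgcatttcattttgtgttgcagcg
rpi-2: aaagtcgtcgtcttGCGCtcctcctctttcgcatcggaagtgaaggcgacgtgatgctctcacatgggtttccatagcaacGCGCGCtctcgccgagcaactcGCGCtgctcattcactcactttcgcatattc
F42A6.6: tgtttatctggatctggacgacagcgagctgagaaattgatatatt
lin-52: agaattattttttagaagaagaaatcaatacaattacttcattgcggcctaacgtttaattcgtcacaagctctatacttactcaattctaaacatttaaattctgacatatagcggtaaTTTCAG
rps-16: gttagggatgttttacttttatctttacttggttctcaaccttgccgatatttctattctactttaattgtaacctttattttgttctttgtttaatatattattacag
gpd-3: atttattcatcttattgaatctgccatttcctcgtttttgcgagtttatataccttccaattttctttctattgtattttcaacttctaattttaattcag

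The gap in front of Y39B6A.43, at chrV:18967830-18967904 (minus strand), has 75 bases, and the IDR summit lies on base 61. The gap of his-37, a histone H4 gene, at chrV:9546842-9547104 (plus strand), has 263 bases with the summit on base 192, holds no GCGC, and carries the letters TATAAA with their first base at position -50 from the start. The 238 bases before fbxl-2, an F-box gene, at chrIII:4757022-4757259 (plus strand), hold 6 copies of GCGC, counted with overlaps, and the summit is on base 153. The rpi-2 gap, at chrIV:1711128-1711261 (plus strand), has 134 bases, 55.2% of them G or C, with 4 copies of GCGC and the summit on base 94. By contrast, F42A6.6 (chrIV:3336874-3336919 (minus strand), 46 bases) and lin-52 (chrIII:9824751-9824876 (minus strand), 126 bases, 29.4% G or C) hold no GCGC, and the gap of lin-52, which encodes a subunit of the DREAM repressor complex, ends in TTTCAG directly before the start. The lin-52 summit is on base 116, whereas that of F42A6.6 lies outside the printed gap, 79 bp inside the gene. The gap of rps-16 lies at chrV:15000542-15000650 (minus strand) and that of gpd-3 at chrX:3113342-3113442 (minus strand). Both are AT-rich, with 26.6% and 26.7% G or C, and neither holds GCGC.

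An IDR summit fell in the window of 226 of the 3615 downstream genes, 6.25% (95% Wilson interval 5.51 to 7.09). The background share was 5.28%, counting 1054 bound genes among all 19973 coding genes. Outside the class, 828 of 16358 coding genes were bound, 5.06% (4.74 to 5.41), and among these the 2651 first genes stood higher, with 239 bound, 9.02% (7.98 to 10.2). Downstream genes thus lay between first genes and the remaining 13707 coding genes, of which 589 were bound, 4.30% (3.97 to 4.65). Here and below, the intervals cover counting error only. Windows of neighbouring genes can share summits and genes of a run are not independent, so no test was made. The 828 bound genes outside the class rested on 610 distinct summits, and the 226 downstream genes on 226.

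Each replicate alone gave the same order. With the strongest peaks of replicate 1, 219 downstream genes were bound, 6.06% against 4.93% of other coding genes, with a background of 5.13% over all coding genes. With the strongest peaks of replicate 2, 229 were bound, 6.33% against 4.63%, with a background of 4.94%. In the full lists, which contain many weaker peaks, the shares were larger. In the pooled list 35.5% of downstream genes held a summit, against 34.0% of first genes, 23.6% of other coding genes as a whole, and a background of 25.7%. The background was 23.1% in the full list of replicate 1 and 22.7% in that of replicate 2. The full lists of the replicates differed in the order of downstream and first genes, with 1085 of 3615 downstream and 844 of 2651 first genes (31.8%) in replicate 1, where first genes were higher, and 1168 (32.3%) and 789 (29.8%) in replicate 2, where downstream genes were. Weaker pooled peaks, those outside the IDR set, fell in 30.7% of downstream windows (29.2 to 32.2), 26.3% of first-gene windows (24.7 to 28.0) and 19.3% of the windows of other coding genes.

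The share of genes with an IDR summit varied with the length of the gap. Of the 1590 downstream genes with a gap of at most 150 bp, the spacing typical of operons, 79 held an IDR summit, 4.97% (4.0 to 6.15), a share close to the background of 5.28%. Of the 624 with a gap above 150 and up to 250 bp, 41 were bound, 6.57% (4.88 to 8.79), and of the 1401 with a gap above 250 bp, 106 were, 7.57% (6.29 to 9.07). The intervals of the short and the long class do not overlap, although they do with a window of 250 bp upstream (4.78% and 5.85%) or when any peak base in the window counts (6.04% and 7.78%). In finer classes the share was 6.64% up to 50 bp (14 of 211), 4.37% above 50 and up to 100 bp (26 of 595) and 4.97% above 100 and up to 150 bp (39 of 784). It was highest, 8.78%, above 375 and up to 500 bp, where 60 of 683 genes were bound. Among same-strand pairs beyond the limit of the rule the share fell back to 5.09% at gaps up to 750 bp (60 of 1178) and 2.47% at gaps above 750 and up to 1000 bp (24 of 973).

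In the pooled list the order was the other way round. A pooled summit was found at 38.3% of genes with a gap of at most 150 bp and at 32.9% of those with a gap above 250 bp, and the highest share of the classes counted was 42.0%, for gaps above 100 and up to 150 bp. Taking only pooled peaks outside the IDR set, the shares were 34.7% (32.4 to 37.0) for gaps of at most 150 bp, 28.7% (25.3 to 32.4) for gaps above 150 and up to 250 bp and 27.1% (24.9 to 29.5) for longer ones. The shortest gaps, up to 50 bp, did not share this lead, with a pooled summit at 63 of 211 genes (29.9%, 24.1 to 36.3). Nor was it present in both replicates. In the full list of replicate 1 the shares were 30.5%, 30.6% and 29.2% in the 3 classes from short to long, and in that of replicate 2 they were 35.1% (32.8 to 37.5), 31.7% (28.2 to 35.5) and 29.4% (27.1 to 31.8).

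**Figure D1:**
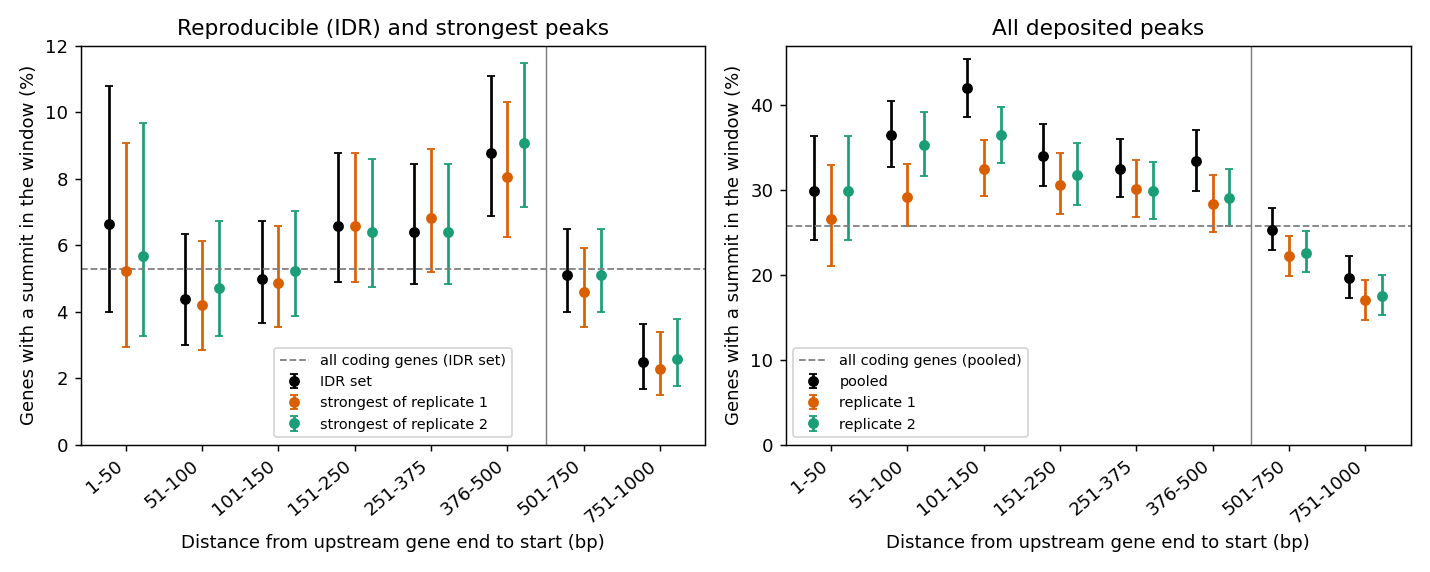
Share of genes with a summit in the window (%, vertical axis) by the distance from the end of the upstream same-strand gene to the start (bp, horizontal axis). Bars are 95% Wilson intervals, the vertical grey line marks the 500 bp limit of the rule, and the dashed line is the share over all coding genes, 5.28% for the IDR set on the left and 25.7% for the pooled list on the right. On the left the highest IDR share, 8.78%, is in the last class within the limit, and on the right the highest pooled share, 42.0%, is for gaps above 100 and up to 150 bp.

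The summits lay mostly in the gap itself. Of the 228 combinations of an IDR summit and a downstream gene, 167 (73.2%) had the summit in the gap, 46 in the first 100 bp of the downstream gene, 15 inside the body of the upstream gene and 0 before it. Because the windows cover different lengths of each kind of sequence, the counts were also set per kilobase. The gaps held 0.211 IDR summits per kb and the first 100 bp of the genes 0.126, while the covered parts of upstream genes held 0.0148, less than the genome-wide 0.0187. The gap density was of the same order in every length class, 0.219 per kb for gaps of at most 150 bp, 0.282 for those above 150 and up to 250 bp and 0.192 for longer ones. In the pooled list the gap density fell with length, from 1.30 to 1.14 and 0.798 per kb. The first 100 bp of the genes held 0.218, 0.0793 and 0.0424 IDR summits per kb from short to long gaps. Whether the amount of sequence in the gap accounts for the shares of bound genes was not tested. Within 500 bp of the start, sequence between the genes held 0.189 summits per kb at gaps above 375 bp, 0.102 at gaps above 500 and up to 750 bp, and 0.0493 at gaps above 750 and up to 1000 bp. Both replicates alone gave the same falling order, 0.182, 0.0900 and 0.0473 in replicate 1 and 0.202, 0.105 and 0.0514 in replicate 2.

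Position followed the length of the gap. The median IDR summit lay at -114 bp from the downstream start (quartiles -198 and -14), nearer than at other coding genes, where the median was -220. For gaps of at most 150 bp the median was -11, and the summit was in the first 100 bp of the gene at 35 of 79 bound genes (44.3%) and in the gap at 32 (40.5%). For gaps above 150 and up to 250 bp the median was -105, and for longer ones it was -199, with the summit in the gap at 100 of 106 genes (94.3%) and in the upstream gene at 0. In these long gaps the median summit stood 166 bp past the end of the upstream gene. Of the 226 IDR peaks at downstream genes 173 had the same width of 404 bp, as did 1435 of all 1880. How precisely the deposited summits are placed was not tested.

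**Figure D2:**
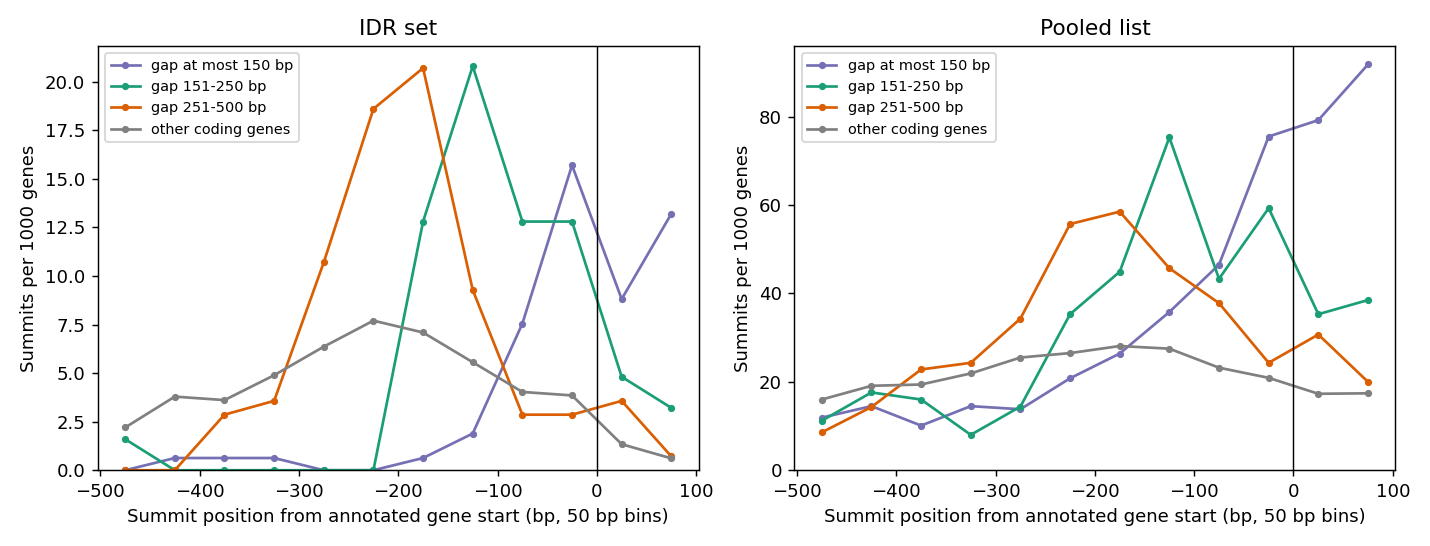
Number of summits per 1000 genes (vertical axis) by position from the annotated start in 50 bp bins (horizontal axis, bp, negative upstream), for the IDR set on the left and the pooled list on the right. Lines are downstream genes in 3 gap classes and all other coding genes. In the IDR set the highest point moves towards the start as the gap shortens, with medians of -199, -105 and -11 bp.

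Downstream genes were bound more often where the first gene of their run was bound. Of 355 downstream genes behind a bound first gene, 52 were bound, 14.6% (11.3 to 18.7), against 174 of 3260 behind an unbound one, 5.34% (4.62 to 6.16). None of these was the same summit counted for both genes, since 0 IDR summits lay in the window of a downstream gene and in that of its first gene. In replicate 1 the shares were 14.9% (52 of 350) and 5.11%, and in replicate 2 they were 15.1% (51 of 338) and 5.43%. In the pooled list they were 52.0% and 26.1%. The background share of 5.28% was therefore close to that behind an unbound first gene.

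In the IDR set this difference was present in each of the 3 gap classes and was largest, in percentage points, in the middle one. At a gap of at most 150 bp, 22 of 222 genes behind a bound first gene were bound (9.91%, 6.64 to 14.5), against 57 of 1368 (4.17%, 3.23 to 5.36). Above 150 and up to 250 bp the counts were 15 of 52 (28.8%, 18.3 to 42.3) and 26 of 572 (4.55%, 3.12 to 6.58), and above 250 bp they were 15 of 81 (18.5%, 11.6 to 28.3) and 91 of 1320 (6.89%, 5.65 to 8.39). Behind a bound first gene, the interval of the middle class overlaps that of the long class but not that of the short one. The immediate upstream gene gave a similar contrast, with 17.8% of downstream genes bound behind a bound neighbour and 5.13% behind an unbound one. Same-strand pairs separated by more than 500 and up to 1000 bp, outside the rule, showed 9.88% (8 of 81, 5.09 to 18.3) and 3.67% (76 of 2070, 2.94 to 4.57), so the contrast was not limited to pairs within 500 bp. Most bound downstream genes, 174 of 226, nevertheless had an unbound first gene, as did 3260 of all 3615 downstream genes. Of the 2651 runs, 49 had an IDR summit at the first gene and further on, 190 at the first gene alone, 163 further on alone, and 2249 at neither.

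**Figure D3:**
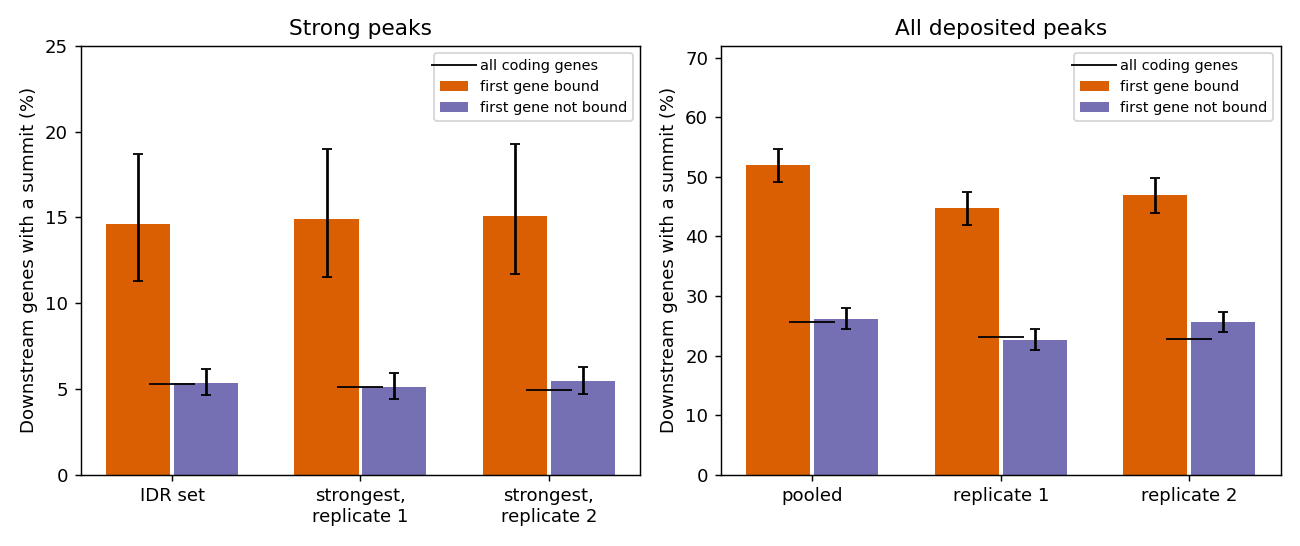
Share of downstream genes with a summit (%, vertical axis, starting at 0), where the first gene of the run was bound in the same list (orange) or not (purple). Bars carry 95% Wilson intervals, and short black lines give the share over all coding genes. In the 3 strong sets on the left the share was 14.6% to 15.1% behind a bound first gene and 5.11% to 5.43% behind an unbound one, and in the pooled list on the right it was 52.0% and 26.1%.

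Strong peaks also differed by place in the run. The gene directly after the first one was bound in 189 of 2665 cases (7.09%, 6.18 to 8.13), the next gene in 26 of 655 (3.97%, 2.72 to 5.75), and later genes in 11 of 295 (3.73%, 2.09 to 6.55). In the IDR set the contrast by first gene had intervals apart only at the gene directly behind it. That gene was bound in 19.1% of cases behind a bound first gene (46 of 241, 14.6 to 24.5). Behind an unbound one the share was 5.90% (5.03 to 6.91). For the next gene the shares were 5.19% (4 of 77, 2.04 to 12.6) and 3.81% (2.53 to 5.70), and for later genes 5.41% (2 of 37, 1.50 to 17.7) and 3.49% (1.85 to 6.50), with overlapping intervals. In the pooled list, by contrast, the shares were 35.2%, 35.1% and 38.6% at these places. There the contrast by first gene reached further along the run. The next gene held a pooled summit in 46.9% of cases behind a bound first gene (41.0 to 52.8) and 26.8% behind an unbound one (22.6 to 31.5). For later genes the pooled shares were 45.6% (37.1 to 54.3) and 33.5% (26.9 to 40.9), with overlapping intervals.

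The strongest peaks of the class were found at genes of varied function, most of them with the summit in a gap above 200 bp. The best placed IDR summit ranked 40, so the 39 strongest peaks of the set lay outside downstream windows. Of the 100 strongest 11 lay inside, close to the share over all 1880 IDR peaks, 12.0%. The median signal, on the authors' scale, was 119 for IDR summits in downstream windows, 118 for all IDR peaks and 144 in the windows of first genes. Within the class it was 110 for gaps of at most 150 bp and 128 for gaps above 250 bp.

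Y39B6A.43, whose gap is printed above, had the strongest peak. Its signal was 480 at rank 40 in the IDR set, 233 at rank 39 in replicate 1 and 247 at rank 45 in replicate 2. The summit was 15 bp before the start in a gap of 76 bp, and the upstream gene, Y39B6A.42, was not bound. It was the only gene with a gap of at most 150 bp among the 100 strongest IDR peaks. For eelo-2 the signal was 468 at rank 44, with ranks of 36 and 50 in replicates 1 and 2 and the summit at -229 in a gap of 381 bp. At his-37 it was 458 at rank 47, and the replicates ranked it 70 and 35. The peak of ddp-1, which encodes a small chaperone of mitochondrial protein import, with a signal of 433 at rank 55, ranked 44 and 62, and its first gene hlh-33, a bHLH transcription factor gene, was not bound. These 4 genes had high ranks in both replicates and unbound first genes.

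The kel-3 window held 2 summits. The stronger one, with a signal of 418 at rank 60, lay at -193, which is inside the upstream gene ant-1.1, a mitochondrial ADP/ATP carrier gene that had its own summit at -49 with rank 125. The kel-3 summit ranked 100 in replicate 1 and 38 in replicate 2. At eif-3.C, a subunit of translation initiation factor 3 that stands behind sys-1, a beta-catenin gene, the signal was 398 at rank 68, with ranks of 74 and 70 and the summit at -239. For fbxl-2 the signal was 372 at rank 76, with ranks of 86 and 84, and the first gene rbg-3 was itself bound at rank 237. The fbxl-2 run is thus a pair with a strong summit at each gene.

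Of the other genes among the 20 strongest, tba-2 encodes an alpha-tubulin and follows the proteasome subunit gene pbs-2. Its signal was 347 at rank 93, with ranks of 87 and 111 in the replicates and the summit at -152. At cmtr-1, a cap methyltransferase gene, rank 95 in the IDR set stood beside ranks 71 and 133. F36A2.7 and acs-13, an acyl-CoA synthetase gene, ranked 97 and 98, with summits at -292 and -347 in gaps of 461 and 463 bp. Then came C34C12.8 at rank 109 and Y75B12B.11 at rank 111, the latter behind a bound first gene, bath-36.

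The remaining 7 of the 20 ranked between 112 and 141. The ufbp-1 gene, whose product takes part in protein modification by UFM1, ranked 112 behind the bound chaperone gene hsp-110. Ranks 133 and 136 belonged to icd-2, the alpha subunit of the nascent polypeptide-associated complex, and ubc-9, the SUMO-conjugating enzyme. A single summit at rank 138 counted for egl-30, the alpha subunit of the Gq protein, and for C53H9.4, a short gene model that starts inside egl-30. Last were egg-4, which acts at the oocyte-to-embryo transition, at rank 140 and dnj-9, a DnaJ-type co-chaperone gene, at rank 141. Of these 20 genes, kel-3, fbxl-2, Y75B12B.11 and ufbp-1 stood behind a bound first gene.

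At the edges of the rule, the bound genes with the shortest gaps were C56C10.7 (2 bp, signal 218, summit at -104 inside icd-1) and agt-1 (13 bp, signal 133, summit at 44). Those with the longest were H37A05.4 and che-6 (both 482 bp, signals 163 and 129) and ubl-5 (500 bp, signal 125). Just beyond the limit stood riok-3 at 504 bp with a signal of 84.1 and K05C4.7 at 507 bp with a signal of 116.

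Several long runs carried IDR summits at more than 1 gene. Among the 198 runs of 4 or more genes, 12 had at least 2 bound genes, and in 7 of these the first gene was among them. The run of 9 genes that starts with sgo-1, the shugoshin gene of chromosome cohesion, had summits at sgo-1 (rank 131, at -439), at rsp-6, an SR splicing factor gene (rank 231, at -186 in a gap of 475 bp), and at imp-3 (rank 885). For rsp-6 the replicates gave ranks 238 and 225, and for imp-3 they gave 494 and 2045. A further IDR summit, at rank 1360, lay inside sec-10 and outside the window of its start.

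The run of 6 genes behind C09G9.5 had no IDR or pooled summit at its first gene. The 3 bound genes were internal, namely oma-1, a maternal RNA-binding protein gene of oocyte maturation (rank 426, at -253), spr-2, a gene known for suppressing presenilin defects (rank 1692, at -112), and rad-54.L2 (rank 931, at -120). The replicate ranks were 874 and 311 for oma-1, 3238 and 2712 for spr-2 and 725 and 1611 for rad-54.L2, so the spr-2 peak was not among the 1880 strongest of either replicate. A different summit in the spr-2 window, at -285, ranked 1101 in replicate 2. In the rpl-36 run the ribosomal protein gene at the head was bound at rank 351 and the next genes, ndab-2 (rank 758, at 46) and epg-4, a gene of autophagy (rank 968, at -137), were bound as well. The run behind C53H9.2 had no IDR or pooled summit at its head, the egl-30 summit described above, and a summit at -378 from emr-1, which encodes the nuclear envelope protein emerin (rank 1699).

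**Figure D4:**
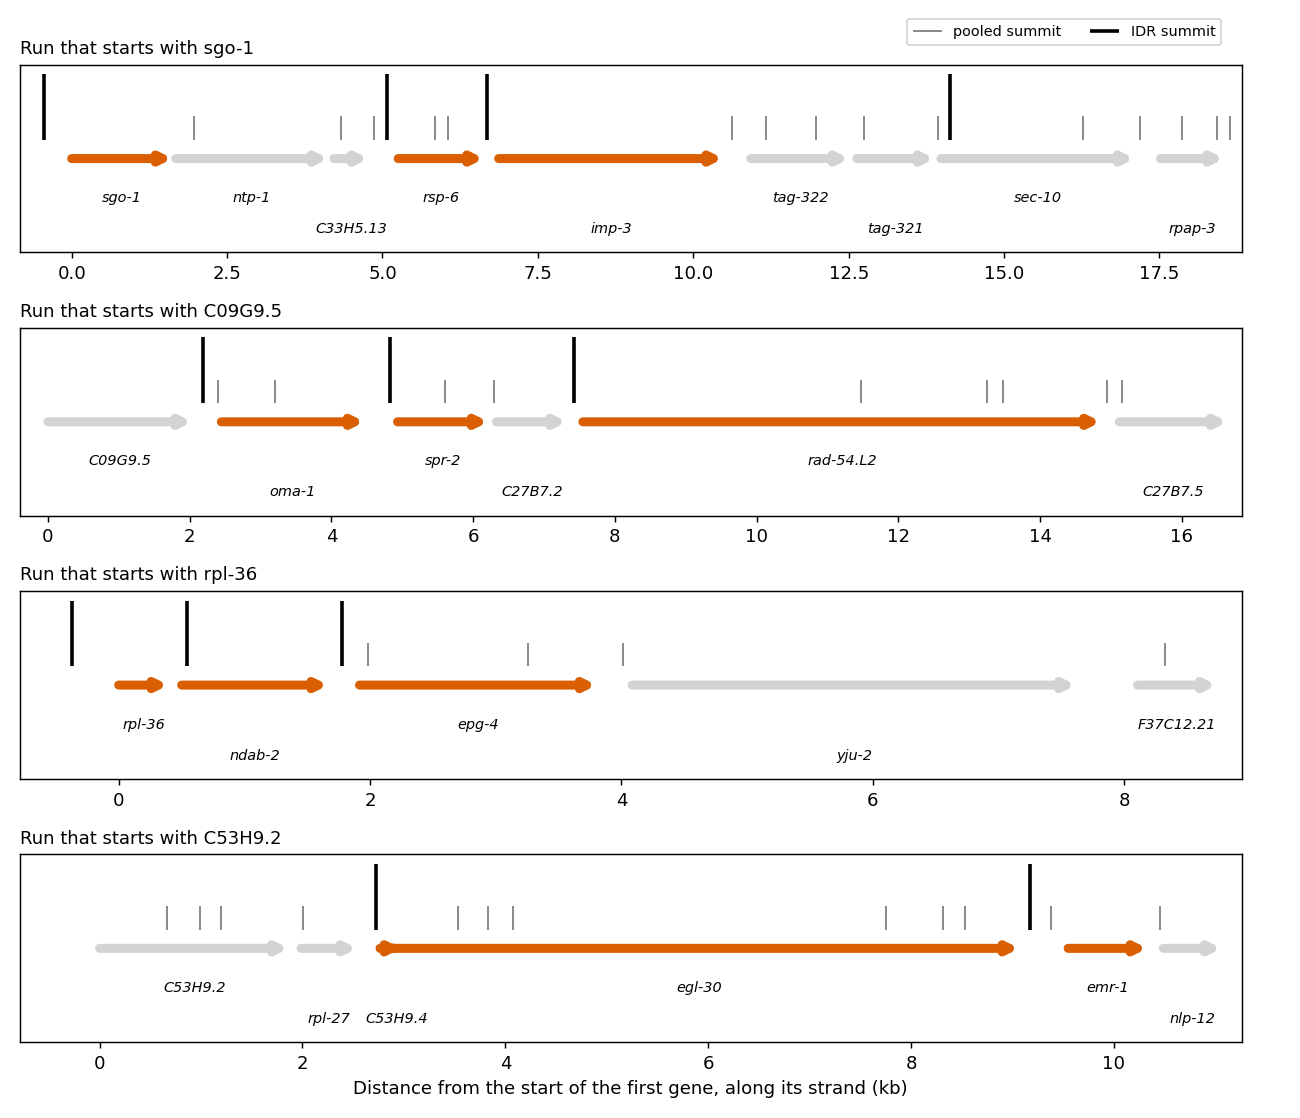
Maps of 4 runs, drawn to scale along the strand of the genes (horizontal axis, kb from the start of the first gene). Arrows are genes, orange when bound by an IDR summit and grey when not, and vertical lines are summits, tall and black for the IDR set and short and grey for the pooled list. The run of sgo-1 has 3 bound genes of 9, that of C09G9.5 has 3 of 6 with none at its first gene, that of rpl-36 has 3 of 5, and that of C53H9.2 has 3 of 6, where egl-30 and the short C53H9.4 share a summit.

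The other 8 of these runs had 2 bound genes each. Behind Y71F9AL.1, trap-1, a subunit of the translocon-associated complex, and nxt-1, an mRNA export factor, were bound at ranks 392 and 313, and behind pbs-2 a summit at C47B2.2 (rank 1057, at 86) followed that of tba-2. In the run of Y41E3.7, fcd-2, a gene of DNA crosslink repair, and hrpu-1 were bound at ranks 1634 and 304. First gene and 1 downstream gene were bound in the runs of suco-1 (with ppw-1, rank 1780), lias-1 (with M01F1.8, rank 1853), atp-2 (with prmt-5, an arginine methyltransferase gene, rank 210), rpl-20 (with cyc-2.1, a cytochrome c gene, rank 695) and ztf-7 (with F46B6.6, rank 1663). The head of the rpl-20 run carried the IDR peak of rank 3.

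Gene groups named by symbol were counted against the same background of 5.28%, and all counts are small. Cytosolic ribosomal protein genes are mostly outside the class, and there 43 of 72 were bound, while of the 9 in downstream position 3 were bound. These were rps-16 (rank 752), rps-17 (rank 975) and rla-1 (rank 1095). Of 19 downstream genes of oxidative phosphorylation 5 were bound, against 10 of 37 elsewhere. Among them were cyc-1, cytochrome c1 of complex III (rank 349), nduf-11 of complex I (rank 535), cyc-2.1 (rank 695) and sdha-1 of complex II (rank 1139). Of the proteasome, 2 of 8 downstream genes were bound, rpn-11, the deubiquitinase of the lid (rank 387), and pbs-5 (rank 1361).

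Mitochondrial ribosomal protein genes are often in downstream position, and 2 of 27 were bound there, mrpl-32 (rank 1226) and mrpl-13 (rank 1231), against 6 of 43 elsewhere. In the transcription machinery 3 of 29 were bound, rpac-19, a subunit that RNA polymerases I and III share (rank 277), mdt-17 of Mediator (rank 1014), and rpc-2 of RNA polymerase III (rank 1411), against 6 of 39 elsewhere. Chaperone genes gave 2 of 13 (dnj-9 and pfd-6, the latter at rank 644), maternal and RNA-binding genes 2 of 6 (oma-1 and puf-5, the latter at rank 1406), and vacuolar ATPase genes 2 of 5 (vha-2 and vha-9). A single downstream gene was bound among 7 of splicing (rsp-6), 7 translation factors (eif-3.C), 8 of replication and cell cycle (mcm-4, a subunit of the replicative helicase, rank 508), 10 aminoacyl-tRNA synthetases (vars-1, rank 935) and 2 DREAM subunits (lin-52, rank 347). Of 4 nuclear pore and transport genes 0 were bound, against 10 of 31 elsewhere.

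Families with restricted expression were almost without IDR summits in this position. None was found at 178 downstream chemoreceptor genes, 38 nuclear hormone receptor genes, 38 C-type lectin genes, 24 cuticle collagen genes and 7 neuropeptide genes, and 1 at 71 F-box and MATH genes, fbxb-72 (rank 223). Elsewhere in the genome the same families were bound at 7 of 993, 5 of 231, 3 of 202, 2 of 132, 0 of 133 and 4 of 324 genes. Pooled summits lay at 11 of the 178 chemoreceptor genes (6.18%) and at 9 of the 38 nuclear hormone receptor genes (23.7%), against the pooled background of 25.7%. They lay at 4 of 38 C-type lectin (10.5%), 5 of 24 collagen (20.8%), 3 of 7 neuropeptide (42.9%) and 12 of 71 F-box and MATH genes (16.9%). Elsewhere the pooled shares of these families were 5.34%, 20.3%, 11.9%, 18.2%, 9.02% and 9.26%, in the same order.

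Genes of well-known operons differed in their summits. In the operon of fib-1, the nucleolar fibrillarin gene, and rps-16, both starts held an IDR summit, at ranks 383 and 752. The fib-1 peak ranked 399 and 392 in the replicates, whereas the rps-16 peak, 7 bp inside the gene, ranked 2754 in replicate 1 and 422 in replicate 2. The pair of vacuolar ATPase genes vha-1 and vha-2 was bound at ranks 656 and 468. At vha-2 the summit lay 43 bp inside the gene, and a peak covered it in both replicates, at rank 586 in replicate 1 and rank 359 in replicate 2, though the replicate 2 peak had its own summit outside the window. The glycolytic gene gpd-3 had a pooled summit at rank 4011 and the cell death gene ced-9 had one at rank 11565, both without an IDR summit, while the gene in front of ced-9, mev-1 of complex II, was bound at rank 337. No summit of any list lay at deg-3 or des-2, a pair of acetylcholine receptor genes, or at lir-1. The gene for TBP itself, tbp-1, is a downstream gene with a gap of 128 bp behind T20B12.3, and it had a pooled summit at rank 5937 with a signal of 45.8 and no IDR summit. The genes mai-1, gpd-2, lin-15A and lin-26 are outside the rule, as their annotated starts do not follow an upstream end within 500 bp.

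The letters around the summits differed with the gap. The trans-splice acceptor TTTCAG ending at the base before the start, on the strand of the gene, was present at 491 of 3615 downstream starts (13.6%) and at 12.3% of all coding starts. At gaps above 250 bp the acceptor was present at 34 of 106 bound starts (32.1%, 24.0 to 41.5) and at 138 of 1295 unbound ones (10.7%, 9.09 to 12.5). Replicate 1 gave 31.7% and 10.7%, and replicate 2 gave 35.2% and 10.4%. At gaps of at most 150 bp no such difference was seen, with 11 of 79 bound starts (13.9%, 7.96 to 23.2) and 255 of 1511 unbound ones (16.9%, 15.1 to 18.8). Other coding genes had the acceptor at 25.8% of bound and 11.2% of unbound starts, and bound first genes at 30.5% (25.1 to 36.7), an interval that overlaps that of bound starts after long gaps.

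Within 100 bp on either side of an IDR summit, on both strands, GCGC was present at 109 of 226 summits in downstream windows (48.2%, 41.8 to 54.7). That was less than the 71.0% at IDR summits of other coding genes (67.3 to 74.4), and more than the 16.2% of stretches of the same length at unbound downstream starts. It was present at 35.4% of summits at gaps of at most 150 bp (25.8 to 46.4) and at 60.4% at gaps above 250 bp (50.9 to 69.2). Over all coding starts the share was 21.1%, and at weaker pooled summits of downstream genes 23.2%. An E2F-like word, TTCGCGC or TTGGCGC, which contains GCGC, was present at 13.3% of downstream IDR summits (9.46 to 18.3), at 18.2% of other ones, at 1.83% of unbound downstream starts and at 2.85% of all coding starts. TATAAA was present at 16.8% of downstream summits (12.5 to 22.2), 35.3% of unbound downstream starts and 30.2% of all coding starts. The polyadenylation signal AATAAA was present at 49.1%, 63.8% and 50.1%. Stretches at starts were centred on position -114, while those at summits followed the summit. Where the gap is shorter than that distance, the centre lies beyond the gap, so these shares can compare different kinds of sequence. GC content also differed between several of these groups. Its median was 38.8% around downstream IDR summits, 41.3% around other ones, 30.8% at unbound downstream starts and 33.3% over all coding starts. Between the gap classes it was level, at 38.8% both for gaps of at most 150 bp and for gaps above 250 bp. The part of GC content in the shares was not tested.

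A few gaps also contain genes for small RNAs, and most of those with a snoRNA gene were bound. Of 7 gaps that overlap an annotated snoRNA gene 6 held an IDR summit (85.7%, Wilson interval 48.7 to 97.4), and 5 and 7 held one of the strongest peaks of replicates 1 and 2. The bound ones were in front of cmtr-1, Y75B12B.11, gst-27, T23G11.11, sdha-1 and F25H2.12, and their summits, at ranks 95, 111, 470, 821, 1139 and 1284, all lay in the gap. The remaining one, before D1086.3, had a pooled summit. Of 4 gaps with an snRNA gene 2 were bound, among them that of W06D4.3, which holds sls-2.7, a gene for the SL2 spliced leader RNA (rank 817). Of 63 gaps with a gene of the broad class ncRNA 9 were bound (14.3%), and of 37 with a piRNA gene 0 were. In such gaps a summit cannot be assigned to the coding or the RNA gene.

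By chromosome, the share of downstream genes bound ranged from 2.84% on V (25 of 881, 1.93 to 4.16) and 3.73% on X (10 of 268, 2.04 to 6.73) to 8.15% on III (49 of 601, 6.22 to 10.6). It was 7.94% on I, 6.93% on II and 8.07% on IV. On IV it was above that of other coding genes, 5.16% (4.39 to 6.06), with intervals that do not overlap. On I, II, III, V and X the intervals of downstream and other coding genes overlapped, and on III and V the value was lower, 8.15% against 9.56% and 2.84% against 3.40%. With X left out the totals were 6.45% of downstream genes (5.67 to 7.34) and 5.56% of other coding genes (5.19 to 5.95), whose intervals also overlap, unlike those of the whole genome.

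The replicates shared most but not all of these peaks. A peak of replicate 2 covered every one of the 226 distinct IDR summits at downstream genes, and a peak of replicate 1 covered 224. The IDR set was kept for reproducibility between the replicates, so such cover partly follows from that selection. Of the 226, 153 (67.7%) were among the 1880 strongest of both replicates, 32 of replicate 1 alone, 36 of replicate 2 alone and 5 of neither. At gaps of at most 150 bp 45 of 79 (57.0%, 46.0 to 67.3) were among the strongest of both, and at longer gaps 108 of 147 (73.5%, 65.8 to 79.9), with intervals that overlap. Counted by genes, 156 were bound in both strong sets, 71.2% of the 219 of replicate 1 and 68.1% of the 229 of replicate 2. Both replicates were called against a shared control file, so part of what they share may also be shared through it, which was not tested.

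**Figure D5:**
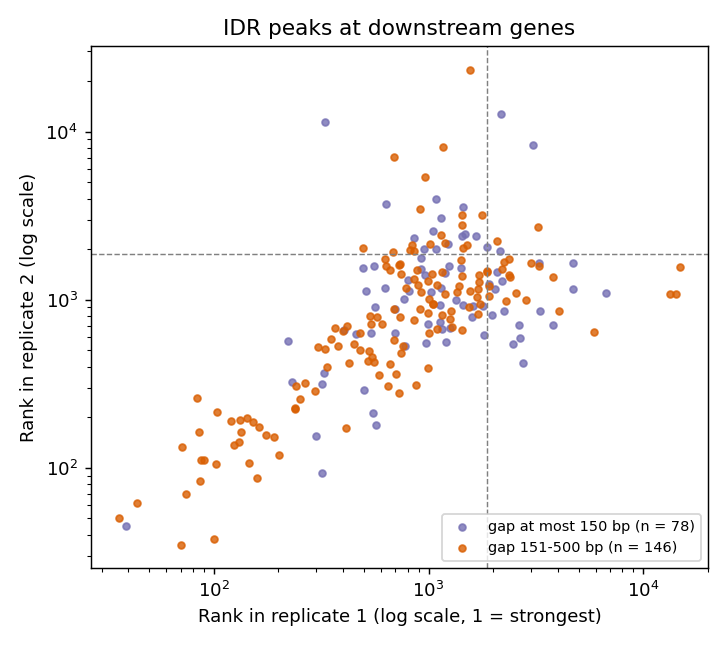
Rank of each IDR peak of a downstream gene in replicate 1 (horizontal, log scale) and replicate 2 (vertical, log scale), where 1 is the strongest peak. Dashed lines mark rank 1880, and colours separate gaps of at most 150 bp (78 peaks) from longer ones (146 peaks), leaving out the summits without a replicate 1 peak. The 153 peaks below and left of both lines were among the strongest of both replicates.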

How the data were processed

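Peaks came from anti-GFP chromatin immunoprecipitation of TLF-1::EGFP worms in 2 replicates. Per the README files, each replicate's peaks were called from its alignments against a common control, and the pooled and IDR lists were derived from these. The sources used here give no caller, aligner, IDR threshold or depth. The authors' signal value, as deposited, served for ranking inside a list. The −log10 q-values, also deposited, were read for checking only. Summits were placed by the deposited offset. Because depth is unknown, no interval reflects it.

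Gene models were Ensembl release 115. The gap is the downstream start minus the upstream end, 1 to 500 bp, between same-strand coding genes, and where several genes ended there the nearest was used. A peak of a replicate was matched to an IDR summit when it covered it, the one with the nearest summit being taken. Shares carry 95% Wilson intervals. Motifs were sought within 100 bp of summits and, for unbound starts, of position -114. Alternatives covered each replicate alone, stronger peaks, other windows, starts, overlaps and gap limits. Named were the 20 genes with the strongest summits, up to 4 per gene list, bound genes of runs of 4 or more with at least 2 bound, genes at the limits, and well-known operon genes. The members, gene lists and alternatives were chosen with earlier results of these data known. The sequence of 1 gap is not reported here. Code was tested on simulated data. The scripts ran on Python 3.11.15 with scipy 1.17.1, pandas 2.3.3, matplotlib 3.10.9 and numpy 2.4.6.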

Additional observations from a re-analysis of the deposited data

How the results depend on the processing

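No paired analysis was possible because both replicates belong to the same group. Of 69 alternative values 46 stayed within the interval or replicate spread of the reported one and 23 moved. Downstream genes were above other coding genes in 8 of 8 alternatives, with intervals apart in 4. Gaps above 250 bp were above gaps of at most 150 bp in 8 of 8, with intervals apart in 6, and genes behind a bound first gene were above the rest in 9 of 9, with intervals apart in 9. With only the stronger 940 IDR peaks the shares were 3.24% for downstream and 3.10% for other coding genes, 2.08% at gaps of at most 150 bp, 4.43% above 250 bp, 10.5% behind a bound first gene and 2.72% behind an unbound one, and the median summit was at -161. The excess over other coding genes nearly vanished there. With 250 bp upstream they were 5.48%, 3.00%, 5.85% at gaps above 250 bp and 10.4% behind a bound first gene, and the median was -88.5. With gaps of at most 250 bp the excess was also small, 5.42% for downstream genes (4.55 to 6.44) against 5.26% for other coding genes. The values were 4.07% behind an unbound first gene and 55.8% with the summit in the gap, and the median was -31. Other coding genes reached 5.45% with any transcript start, 5.96% with any peak base, and 3.69% with each summit given to its nearest start. Downstream genes were at 6.47%, 6.89% and 6.20% in these settings. With any peak base 95.2% of bound genes had peak sequence in the gap, and the median was -98. Leaving out a replicate gave 6.06% to 6.33% for downstream and 4.63% to 4.93% for other coding genes, and medians of -123 to -111. Depth is unknown, so how far it limits the weaker peaks was not tested.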
